A study of Mus musculus with 14 samples.

Results

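The genes described here are those named for the proteins of the cytosolic ribosome. They were chosen by symbol: Rpl or Rps followed by a number with its letter endings, together with Rpsa and the stalk genes Rplp0, Rplp1 and Rplp2, without rows named as pseudogenes. Of 55291 symbols in the mouse count table, 90 met this rule. They were 46 large subunit genes (Rpl), 31 small subunit genes (Rps) and 13 paralogs or copies, such as Rpl22l1 and Rps27l. The annotation lists 6 of the copies as processed pseudogenes although their symbols do not say so: Rpl32l, Rpl6l, Rps12l1, Rps3a2, Rps3a3 and Rps4l. The 77 genes that are no paralog or copy are called core members below. Genes of ribosomal proteins with other kinds of symbol, such as Fau and Rack1, fall outside the rule.

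A ribosome holds a single copy of nearly every ribosomal protein, so their mRNAs are needed in like amounts, and they are among the most abundant mRNAs of growing cells. Most begin with a C and a run of pyrimidines, the 5′ terminal oligopyrimidine (TOP) element, through which mTORC1 and the cap-binding protein LARP1 set their translation and stability together. Several genes have a paralog whose protein can take the same place in the ribosome, and some of these paralogs are known from single tissues, such as Rpl3l from striated muscle.

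RNA was sequenced from C57BL/6J mouse cells. MEF are embryonic fibroblasts from E13.5 embryos (3 libraries). D7 and D18 are intermediates after 7 and 18 days in M7, a reprogramming medium with bFGF, CHIR-99021, LDN193189, A 83-01, Hh-Ag1.5, RG108, BMS-345541 and CKI-7 (3 libraries each). D32 are the chemically induced RPE-like cells (ciRPE) at day 32, with M3 as their medium, which holds KSR, a serum replacement, Y27632, nicotinamide, retinoic acid and Activin A (3 libraries). P-RPE is primary retinal pigment epithelium, the pigmented layer behind the photoreceptors, with no treatment (2 libraries). The labels also give the MEF libraries the M7 medium, and they name the embryo as the tissue of P-RPE, so the age of that tissue is uncertain. Cells were scraped where the culture looked well induced, so the libraries do not stand for whole dishes. Nothing in the labels says that replicates were separate cultures or animals, and the p-values below measure the spread between these libraries, which may be technical.

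The libraries held between 32352405 and 41390196 counts. The 11 RPE markers summed to 4.43 to 5.15 CPM (counts per 1000000, on scaled library sizes) in MEF, with 5 of them at 0, to 4360 to 8265 CPM in D32 and to 56070 to 61930 CPM in P-RPE. The 8 fibroblast markers summed to 19890 to 30460 CPM in D32 and to 27940 to 29440 CPM in MEF. The 8 astrocyte and neural progenitor markers were highest at D18, at 23990 to 35670 CPM. All 6 red cell, all 6 endothelial, all 6 macrophage and all 6 rod markers had counts in P-RPE, with sums of 974.6 to 1780 CPM, 559.7 to 651.1 CPM, 919.6 to 936.5 CPM and 930.5 to 2635 CPM. The same lists summed to at most 203.8, 208.4, 163.9 and 51.9 CPM in any D32 library. D32 replicate 2 stood apart from the other D32 libraries in the genes described here, as detailed below, so the counts of members called at D32, and the named members whose value it moves most, are also given without it.

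The start of the mRNA is where the TOP element lies, and 8 members are shown to make it visible. RefSeq starts on GRCm38.p6 were available for 57 of the 77 core members. A run of at least 8 pyrimidines that opens with C, read on the gene's own strand within 50 bases of an annotated start, was found in 37 of the 57 (64.9%), against 3320 of 20977 genes of the table with a start (15.8%). With a minimum of 10 the shares were 43.9% and 7.03%. The minimum lengths were chosen after the sequences were seen. The windows below are 30 bases long, 5′ to 3′, with the run in capitals.
Rps6 (chr4:86857338-86857367, minus strand): CTCTTTTTCgtgacgcctcccaggcgctcg
Rps18 (chr17:33955636-33955665, minus strand): CTCTCTTCCacaggaggcctacacgccgcc
Rps26 (chr10:128626477-128626506, minus strand): ggatCCTCTTTCgagtcttggctccaagat
Rpl28 (chr7:4792965-4792994, plus strand): CTCTTTCCgtctccggccgccatagggaga
Rpl35 (chr2:39005102-39005131, minus strand): CTCTTTCTCTCgaaccaggctgcttcagcc
Rpl13a (chr7:45128716-45128745, minus strand): gaCCTCCTCCTTTCCCaggcggctgccgaa
Rpl38 (chr11:114668580-114668609, plus strand): CTTTCCCCgttctcttcggttctcatcgct
Rpl22l1 (chr3:28805508-28805537, plus strand): gttCTCTTCCCacggctgcagctcaacatg
In Rps6, Rps18, Rpl28, Rpl35 and Rpl38 the run begins at base 1 of the annotated start. These 8 were chosen after their values were seen: Rps26, Rpl28 and Rpl35 were among the members that fell most at D18, Rpl22l1 and Rpl38 among those that fell least, and Rpl13a rose most of the core members from D18 to D32. They were taken only from genes that hold such a run, so its presence in all 8 is not a result. Over the core members, the median log2 change from D7 to D18 was -1.52 with a run (37 genes) and -1.49 without (20 genes). A match is a description of the letters and not of a working element.

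The family as a whole was most abundant in fibroblasts and at day 7, lowest at day 18, and between these at day 32. Its summed counts made up 4.53% of all counts in MEF replicate 1, 4.65% in replicate 2 and 4.61% in replicate 3. At D7 the shares were 4.68%, 4.38% and 4.68%, which overlap with MEF. At D18 they were 1.289%, 1.504% and 1.284%, all below every D7 library, so the mean share at D7 was 3.37 times that at D18. At D32 they were 2.43%, 3.31% and 2.72%, with replicate 2 the highest. The P-RPE shares of 1.44% and 1.59% overlap with D18 and lie below every D32 library. The order of the group means was MEF, D7, D32, P-RPE and D18, and neither MEF and D7 nor P-RPE and D18 were separated by their ranges. These are shares of RNA, so fewer cells of a type and less RNA per cell cannot be told apart.

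**Figure D1:**
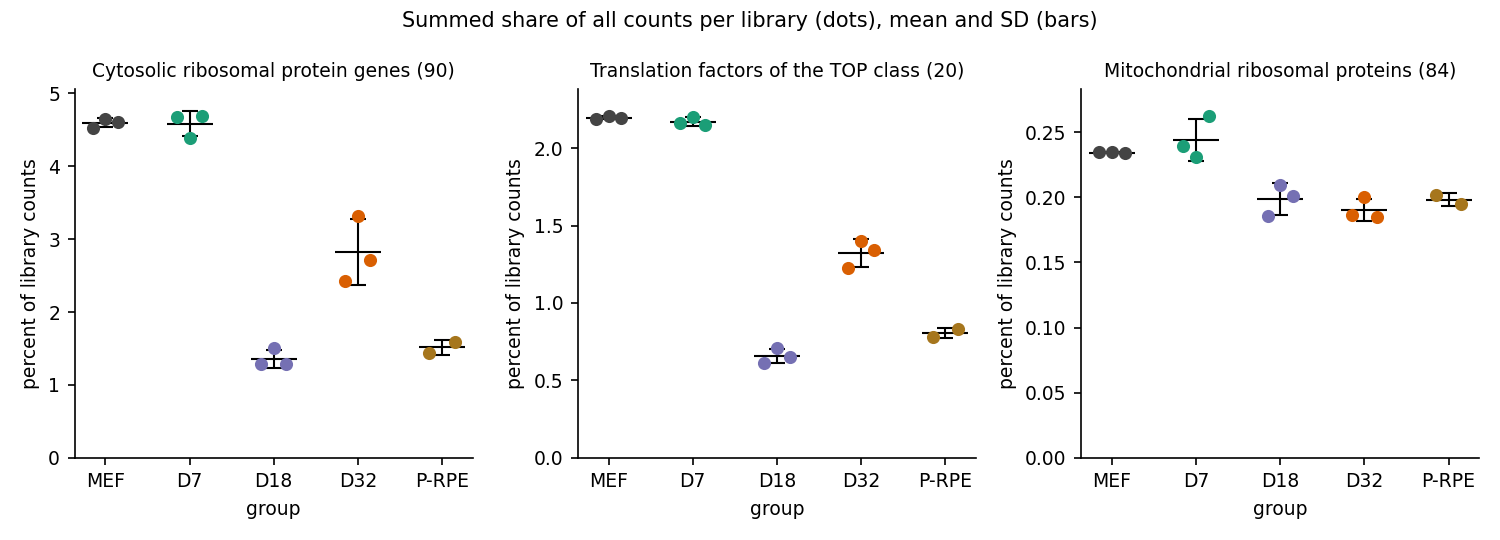
Summed share of library counts in percent (y axis) by group (x axis) for the 90 ribosomal protein genes, 20 TOP-class translation factors and 84 mitochondrial ribosomal protein genes. Dots are libraries and bars the mean and SD (n = 3, P-RPE n = 2); the first pair of panels falls to its lowest level at D18, at means of 1.36% and 0.658%, while the mitochondrial list stays between 0.1845% and 0.262% in all libraries.

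The quasi-likelihood test of edgeR was used for single genes, p-values were adjusted over all 20562 genes tested (Benjamini-Hochberg), and a gene was called at an adjusted p under 0.05. Of the 90 genes, 88 passed the filter on low counts and were tested, and Rpl10l and Rps12l1 had 0 counts in all 14 libraries. Library sizes were scaled with TMM factors (trimmed mean of M values) before levels were put in CPM, and changes are log2 differences of group means with their standard error (SE).

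At day 7 against fibroblasts, changes were small and mostly downward. Of the 88 genes tested, 34 fell and 2 rose, beside a background of 26.5% and 28.5% of all genes called lower and higher, and the median change was -0.30 against 0.04 over all genes. These counts depend on the scaling: with library totals in place of TMM, 6 fell, 9 rose and the members' median was 0.02, while the median of all genes moved up by 0.32. Relative to the median of all genes, that of the members was -0.34 under both scalings. Without MEF replicate 2, 21 fell and 0 rose, and with MEF and D7 fitted alone, over 16937 genes, 56 fell and 3 rose. The members' medians in these 2 fits were -0.283 and -0.266, against 0.0595 and 0.0381 over all genes. Shares of all genes called were counted only with all libraries and TMM scaling. Counts of calls from other fits, here and below, therefore stand without such a share.

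Rps2 (GRCm38, chr17:24718116-24721929, plus strand), a small subunit protein near the mRNA entry tunnel, fell the most among core members at D7. Its level was 3468, 3743 and 3514 CPM in MEF and 1946, 1791 and 1932 CPM at D7, a log2 change of -0.92 (SE 0.153, adjusted p = 0.000121). The groups did not overlap, and the 3 D7 libraries lay close together. Rpl13a, which also serves in the interferon-gamma GAIT complex, fell from 36.5, 36.3 and 38.5 CPM to 22.6, 22.2 and 20.7 CPM, by 0.77 on the log2 scale (SE 0.151, adjusted p = 0.000526). Its level was low beside the core median of 583.4 CPM in MEF, and 59.3% of its exon bases overlap another annotated gene. The changes of Rpl13a here and below are therefore uncertain. Among paralogs, Rps4l fell by 1.30, Rpl7l1 by 0.74 and Rps27l by 0.69 on the log2 scale. Rpl22l1 rose from 21.9, 19.4 and 22.3 CPM to 26.2, 29.9 and 29.6 CPM (0.43, SE 0.127, adjusted p = 0.00965). That call was lost without MEF replicate 2 (0.37) or D7 replicate 3 (0.37). The stalk gene Rplp0 fell by 0.44 on the log2 scale (adjusted p = 0.0377), a call lost on leaving out any single library of the 2 groups. The other gene called higher, Rpl24, had 114 counts over the 3 D7 libraries and 36 over MEF, and it is named after its values were seen.

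Between day 7 and day 18 nearly the whole family fell. Of the 88 genes, 83 fell and 1 rose, beside 27.4% and 29.2% of all genes called lower and higher, with a median of -1.48 against 0.00 over all genes. Of the 77 core members 75 fell, and the median change over all 77 was -1.49. In 76 of them every D18 library lay below every D7 library, as was the case in 31.3% of all genes tested. Small subunit members had a median of -1.52 (30 of 31 fell) and large subunit members of -1.44 (45 of 46 fell). The middle 50% of core members lay between -1.73 and -1.32.

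Rps26 (chr10:128624534-128626747, minus strand), a small subunit protein at the mRNA exit site, fell the most. It stood at 541.5, 472.9 and 515.3 CPM at D7 and at 94.9, 117.7 and 88.4 CPM at D18, a log2 change of -2.35 (SE 0.124, adjusted p = 1.32e-09). All D18 libraries lay far below the lowest D7 library. Rpl28, of the large subunit, fell from 701.7, 646.9 and 687.6 CPM to 144.8, 166.5 and 133.0 CPM (-2.20, SE 0.139, adjusted p = 7.63e-09). Rps7, a small subunit assembly protein that also binds MDM2, fell by 2.11 on the log2 scale (SE 0.108), from 721.8, 663.8 and 737.2 CPM to 167.3, 177.6 and 147.1 CPM. The groups did not overlap for either gene.

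Members with known roles beside the ribosome fell with the rest. Rpl5 and Rpl11, which with 5S rRNA bind MDM2 and so stabilise p53, fell by 1.42 and 1.28 on the log2 scale. Rps6, the S6 kinase substrate, fell from 544.6, 488.7 and 557.4 CPM to 182.6, 212.6 and 161.5 CPM (-1.52, SE 0.132, adjusted p = 1.98e-07). Rpsa, which is also known as a laminin receptor, fell by 1.91 and Rplp0 by 2.01 on the log2 scale. The other stalk proteins Rplp1 and Rplp2, which recruit elongation factors, fell by 1.20 and 1.25. Rps18, often used as a reference gene, fell by 1.77.

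The genes that fell least included several with short transcripts and a few paralogs. Rps29, whose transcript has 390 bases, stood at 136.1, 130.3 and 130.7 CPM at D7 and at 85.7, 94.1 and 91.5 CPM at D18; its change of -0.55 (SE 0.274) did not pass the test (adjusted p = 0.104), although the groups did not overlap. Rpl38, needed in the mouse for normal patterning of the axial skeleton, fell by 0.50 (SE 0.199, adjusted p = 0.0445). Rpl41, the shortest ribosomal protein, fell by 0.79 on the log2 scale. Rps29 and Rpl38 are named after their values were seen. Across the 77 core members the change had a Pearson r of -0.43 with log2 transcript length (Spearman rho -0.42), which describes genes of the same libraries. By length, the median change was -1.20 in the 11 core members under 500 bases, -1.48 in the 44 of at least 500 and under 1000 bases and -1.73 in the 22 of 1000 bases or more. Other genes under 500 bases with a mean of at least 10 CPM had a median of 0.25 (28 genes). All these lengths are of annotated principal transcripts, such as 3706 bases for Rps20. The lengths of the transcripts expressed in these libraries were not measured, so the length classes and correlations are uncertain. Rpl3l was the 1 gene that rose, from 0.00, 0.07 and 0.19 CPM to 0.48, 0.48 and 0.66 CPM (2.57, SE 0.808, adjusted p = 0.0135), on 11 and 58 counts.

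**Figure D2:**
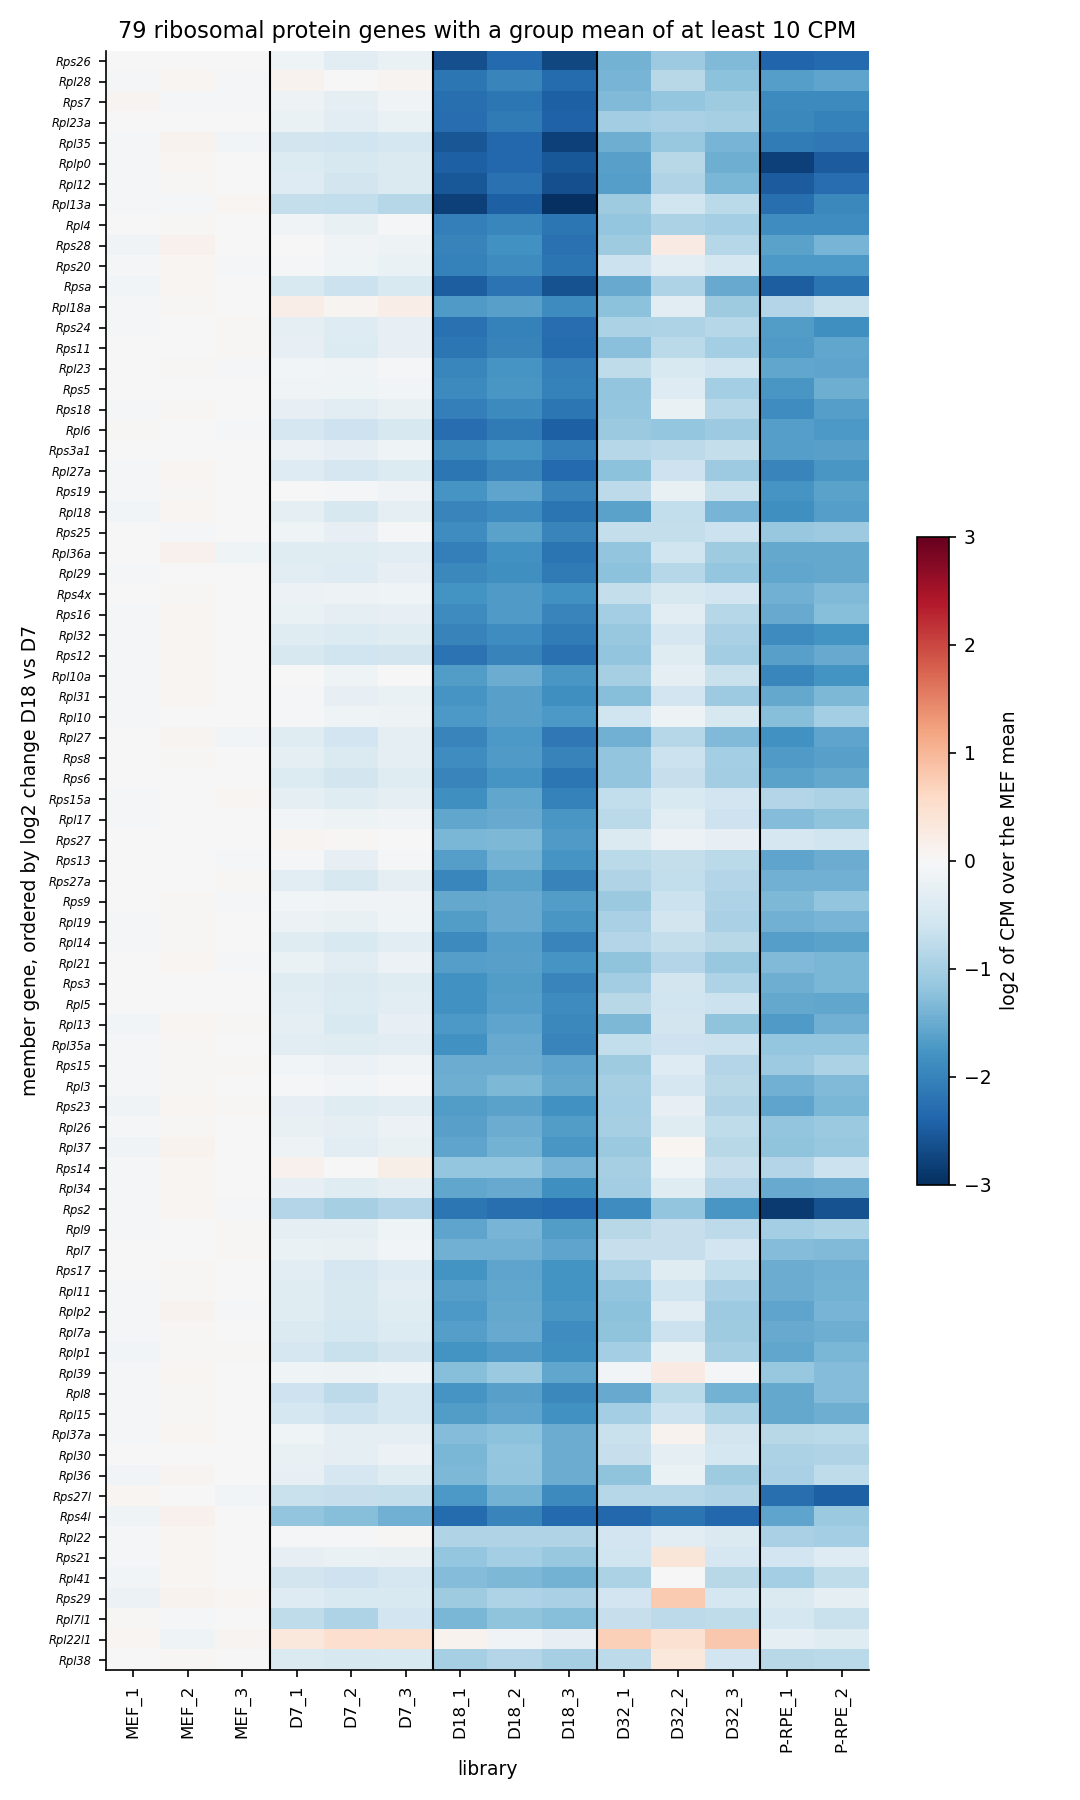
Log2 of CPM over the MEF mean (colour) for the 79 ribosomal protein genes with a group mean of at least 10 CPM (rows, ordered by their change from D7 to D18) in 14 libraries (columns). The D18 columns are the darkest blue over nearly all rows, Rps2 and Rplp0 are darkest in P-RPE, and Rpl22l1 is red at D7 and D32.

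At day 32 the family was higher than at day 18 and lower than in fibroblasts. Against D18, 81 of 88 genes rose and 1 fell, beside 29.9% and 26.1% of all genes called higher and lower, with a median of 1.01 against 0.07 over all genes. Without D32 replicate 2, 80 rose, 1 fell and the median was 0.80. Rps20, a small subunit protein, rose from 97.8, 107.4 and 87.3 CPM at D18 to 255.0, 315.2 and 277.2 CPM at D32 (1.54, SE 0.107, adjusted p = 1.83e-08). Every D32 library was above every D18 library. Rpl13a rose from 5.37, 6.80 and 4.67 CPM to 17.6, 24.6 and 21.4 CPM (1.91, SE 0.16), which left it below each of its MEF libraries. Without D32 replicate 2 the rises of Rps20 and Rpl13a were 1.45 and 1.79. Rps28 rose from 52.2, 59.5 and 44.8 CPM to 100.7, 248.4 and 116.8 CPM (1.57, SE 0.258), and by 1.06 without D32 replicate 2. Rpl22 had the smallest rise of the core members that passed the test, 0.46 (SE 0.0851, adjusted p = 0.00034), from 113.3, 113.0 and 114.5 CPM to 142.9, 167.8 and 156.4 CPM, and 0.40 without D32 replicate 2. Rpl3l was the 1 gene that fell, by 2.60 on the log2 scale, on 58 counts at D18 and 10 at D32. The call was lost without D32 replicate 3 (-2.19).

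Against MEF, 75 of 88 genes were lower at D32 and 1 was higher, beside 24.6% and 35.6% of all genes called lower and higher. The median was -0.80 against 0.26 over all genes, and without D32 replicate 2 it was -0.97 with 81 lower and 1 higher. In 74 of 77 core members the D32 mean lay between those of D18 and MEF, an order that was not counted over all genes. Rps2, at 989.0, 1570 and 1071 CPM, had the largest fall of the core members (-1.56, SE 0.156, adjusted p = 6.87e-07), and Rpl35, at 69.2, 87.5 and 72.4 CPM, fell by 1.33 on the log2 scale. Both lay below every MEF library. The gene called higher was Rpl22l1, with 34.85, 28.97 and 37.35 CPM against 21.9, 19.4 and 22.3 CPM (0.67, SE 0.127, adjusted p = 0.000349). Exons of Rpl35 and Rpl22l1 overlap genes on the other strand, as given below, which leaves both changes uncertain. Rpl39, a small protein of the peptide exit tunnel, stood at 136.2, 171.0 and 137.9 CPM at D32 and at 137.3, 148.3 and 143.9 CPM in MEF. Its difference of 0.05 (SE 0.117, adjusted p = 0.722) did not pass the test, and its groups overlapped. Without D32 replicate 2, the changes against MEF were -1.79 for Rps2, -1.44 for Rpl35, 0.77 for Rpl22l1 and -0.06 for Rpl39 (adjusted p = 0.643).

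D32 replicate 2 held more of the family than the other D32 libraries, and most of all its members with short annotated transcripts. In the 11 core members under 500 bases its log2 level lay a median of 0.81 above the mean of replicates 1 and 3. The median was 0.43 in the 44 members of at least 500 and under 1000 bases and 0.38 in the 22 longer ones. All tested genes with a mean of at least 10 CPM had a median of 0.06. Rps29 stood 1.34 higher in it, at 308.7 CPM beside 119.0 and 124.3 CPM, and Rpl41 0.90 higher, at 750.6 CPM beside 385.0 and 417.0 CPM. The same library had a higher level of short nuclear genes of the respiratory chain (median 0.49 over 33 genes). Its share of mitochondrially encoded RNA was 1.43%, beside 3.03% and 3.33% in replicates 1 and 3. Without it, Rps21, Rps28, Rps29, Rpl37a, Rpl38 and Rpl41 stood below MEF at D32, with log2 changes of -0.55, -0.95, -0.55, -0.62, -0.68 and -0.88 and adjusted p-values of 9.76e-05, 2.86e-05, 0.00027, 0.000112, 1.3e-05 and 6.37e-06. With it, the first 5 of these did not pass the test. What sets this library apart was not tested.

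**Figure D3:**
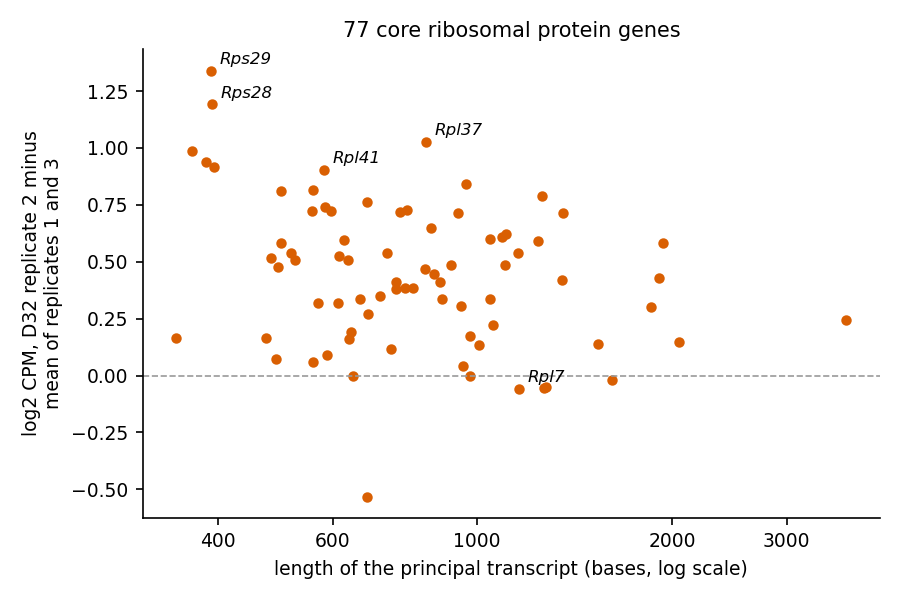
Log2 CPM of D32 replicate 2 minus the mean of replicates 1 and 3 (y axis) against the length of the principal transcript in bases (x axis, log scale) for the 77 core members (dots). Most dots lie above 0, and the highest, Rps29 at 1.34 and Rps28 at 1.19, are transcripts of 390 and 392 bases.

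Primary RPE held the family at a level near that of day 18, and below both fibroblasts and day 32. Against MEF, 81 of 88 genes were lower and 1 was higher, beside 31.4% and 39.3% of all genes called lower and higher, with a median of -1.49 against 0.18 over all genes. Of the core members 74 of 77 were lower, and the median change over all 77 was -1.49. Rps2 stood at 491.5 and 587.0 CPM (-2.73, SE 0.191, adjusted p = 6.58e-09). Rplp0 stood at 458.6 and 566.7 CPM in P-RPE and at 3046, 3314 and 3199 CPM in MEF (-2.64, SE 0.209, adjusted p = 2.71e-08). Rpl12, which sits at the base of the stalk, fell from 997.8, 1046 and 1008 CPM to 179.8 and 208.8 CPM (-2.39, SE 0.197). For all 3 genes the groups lay far apart. The smallest differences that passed the test were those of Rps27, a zinc finger protein of the small subunit, by 0.55, and of the paralog Rpl7l1, by 0.60 on the log2 scale. Markers of red cells, endothelium, macrophages and rods were present in P-RPE and at D32 at the sums given above. The part of such cells in the levels of either group was not tested.

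Against P-RPE, D32 was higher in 69 of 88 genes and lower in 2, beside 27.1% and 26.8% of all genes called higher and lower. The median was 0.66 against 0.02 over all genes, and without D32 replicate 2 it was 0.49, with 61 higher and 3 lower. Rplp0 stood at 1038, 1791 and 1148 CPM in D32, above both P-RPE libraries (1.37, SE 0.197, adjusted p = 3.51e-05), and without D32 replicate 2 its difference was 1.09. Rpl13a differed by 1.28 (SE 0.179) and Rpl39 by 1.27 (SE 0.137), and without that library by 1.16 and 1.15. Rps27l was the paralog with the largest difference among those with at least 10 CPM, at 74.5, 74.4 and 72.3 CPM in D32 and 27.9 and 24.5 CPM in P-RPE (1.49, SE 0.129, adjusted p = 2.29e-07), and its difference was 1.49 without D32 replicate 2 too. Rpl41 and Rps29 differed by 0.38 (SE 0.214, adjusted p = 0.152) and 0.40 (SE 0.308, adjusted p = 0.291) and did not pass the test. Without D32 replicate 2 the difference of Rpl41 was 0.0081 and that of Rps29 turned to -0.20 (adjusted p = 0.958 and 0.125). The genes that were lower at D32 were Rps4l (-0.97, SE 0.152) and Rpl3l (-2.74, SE 0.87), and the call on Rpl3l was lost without D32 replicate 3 (-2.32) or P-RPE replicate 1 (-2.28). In 72 of 77 core members the D18 mean lay below the P-RPE mean, a comparison that was neither tested nor counted over all genes.

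The members did not keep their proportions. Per kilobase of the principal transcript, the core median was 660.7 CPM per kb in MEF and 552.1 at D7. It was 188.7 at D18 and 369.7 at D32, and 240.0 in P-RPE. The highest values in MEF were 3268 CPM per kb for Rps2, 2347 for Rplp0 and 2218 for Rplp1. In P-RPE they were 808.1 for Rplp1, 768.7 for Rps14 and 685.0 for Rpl41. Rps2 made up 7.12% of the family's counts in MEF and 3.18% in P-RPE, and Rplp0 6.34% and 3.02%. The small subunit held 41.9% ± 0.12 (SD, n = 3) of core counts in MEF and 41.1% ± 0.156 at D7. It held 40.2% ± 0.101 at D18 and 41.5% ± 0.144 at D32, and 39.99% and 40.17% in the P-RPE libraries. The ranges of D18 and P-RPE, up to 40.3%, lay below those of the other groups, from 40.9%. Annotated transcript length moved with the changes here too: over the 77 core members the P-RPE against MEF change had r = -0.46 with log2 length.

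The part of a pair held by the paralog differed between groups. Rpl22l1 (chr3:28805436-28807424, plus strand) is the paralog of Rpl22 (chr4:152325742-152334071, plus strand). Rpl22l1 held 9.07% ± 0.854 (SD, n = 3) of the counts of the pair in MEF. Its part was 11.99% ± 0.833 at D7, 15.02% ± 1.61 at D18 and 17.9% ± 2.73 at D32, and 13.64% and 14.03% in the P-RPE libraries. All libraries of the 3 culture time points lay above those of MEF, and the D18 and D32 ranges overlapped. Rpl22 itself stood at 207.5, 220.3 and 210.3 CPM in MEF and at 108.6 and 104.4 CPM in P-RPE. Rpl22l1 also rose at D32 against D18 (0.75, SE 0.127) and stood above P-RPE at D32 (0.98, SE 0.146), and without D32 replicate 2 its rise against D18 was 0.85. Against MEF it differed by -0.31 in P-RPE, which did not pass the test (adjusted p = 0.0666).

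Rps27l (chr9:66946086-66949516, plus strand), a p53 target and close homologue of Rps27, held 46.4% ± 1.081 (SD, n = 3) of its pair in MEF and 34.4% ± 0.419 at D7. This part was 42.8% ± 2.23 at D18, 36.7% ± 2.26 at D32, and 19.3% and 20.4% in the P-RPE libraries. Its level was 139.9, 135.7 and 127.0 CPM in MEF, and its change from MEF to P-RPE was -2.36 (SE 0.134), beside -0.55 (SE 0.116) for Rps27. Rpl7l1, whose protein acts in the making of the large subunit, was highest, as a part of its pair, in P-RPE. It stood at 148.5, 142.3 and 146.5 CPM in MEF, 56.8, 63.5 and 59.9 CPM at D18 and 100.5 and 91.2 CPM in P-RPE. Its part of the pair with Rpl7 was 17.95% ± 0.418 (SD, n = 3) in MEF and 25.6% and 27.0% in P-RPE.

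Rpl39l, best known from the testis, stood at 3.35, 4.04 and 3.29 CPM in MEF and at 0.11 and 0.27 CPM in P-RPE, on 14 counts (-4.20, SE 0.553, adjusted p = 6.85e-06). Its part of the pair with Rpl39 was 2.42% ± 0.211 (SD, n = 3) in MEF and 0.711% ± 0.258 at D32. Rps4l (chr6:148354656-148355598, plus strand), a single-exon copy of Rps4x that the annotation lists as a transcribed processed pseudogene, stood at 63.8, 76.9 and 69.6 CPM in MEF and at 13.8, 15.3 and 13.8 CPM in D32 (-2.30, SE 0.143, adjusted p = 5.96e-09). From D18 to D32 it differed by -0.09 (SE 0.139, adjusted p = 0.589), while Rps4x rose by 1.19 (SE 0.0963). Reads of near-identical copies may be split between them, so the values of Rps4l, Rps3a2 and like copies are uncertain. Rpl3l had 2 counts over the MEF libraries and 43 over P-RPE. The ratio of its levels was 30.7, with a 95% interval of 7.99 to 261 for counting error if each count were independent. Both ends of a read pair may count, and the MEF counts all lay in replicate 2, so this interval may be too narrow. Rpl3 was lower in P-RPE by 1.38 on the log2 scale. Rpl36al had 120 counts over MEF, and 63.1% of its exon bases overlap another annotated gene.

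**Figure D4:**
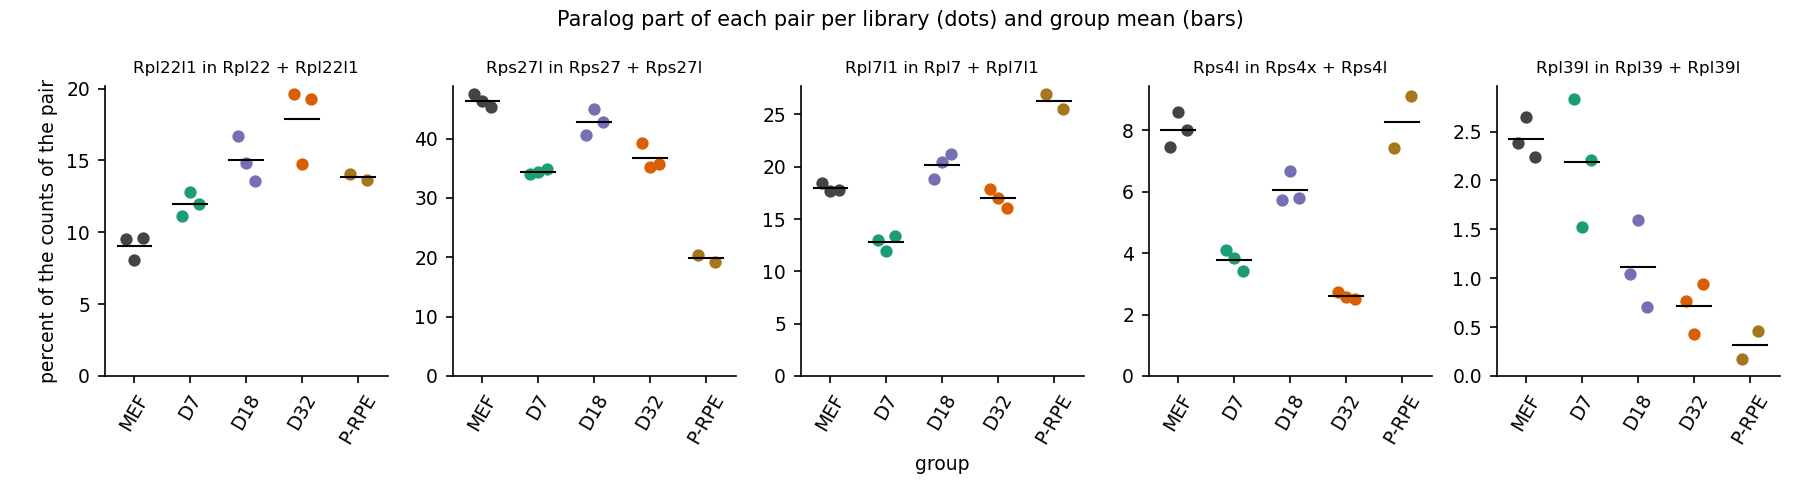
Part of a pair's counts held by the paralog, in percent (y axes from 0), by group for 5 pairs. Dots are libraries and bars group means; the Rpl22l1 part is lowest in MEF at 9.07%, and the Rps27l part is lowest in P-RPE at 19.8%.

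A few members had low counts for ribosomal protein genes. Rpl24 had 18 to 114 counts per group, Rps10 between 1.49 and 6.58 CPM in any library and Rpl13a at most 38.5 CPM. In these genes 71.5%, 70.8% and 59.3% of the exon bases overlap another annotated gene on the same strand, with 63.1% in Rpl36al. Rps10 also had 1668 counts on rows of its pseudogenes beside 1701 of its own. No other member but Rpl38 (5.44%) had over 5% of its reads on rows that bear its own symbol with a pseudogene ending. Copies with other symbols, such as Rps4l, Rps3a2 and Rps3a3, do not enter this percentage. Whether reads were lost to overlapping genes or pseudogene rows was not tested. Genes on the other strand overlap 68.3% of the exon bases of Rpl35, 46.6% in Rpl5, 28.8% in Rpl22l1 and 16.6% in Rpl28. The strand setting is not given, so a loss of reads there cannot be told either. The levels and changes of Rpl24, Rps10, Rpl13a, Rpl36al and Rpl38 are therefore uncertain. Those of Rpl35, Rpl5, Rpl22l1 and Rpl28 are uncertain to the extent of their overlap. The 319 pseudogene rows of the family held 0.0102% of counts in MEF, 0.00342% at D18 and 0.00314% in P-RPE, and 54 of the 89 tested fell from D7 to D18, beside 27.4% of all genes.

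Genes that work with the family were counted the same way, beside 27.4% of all genes called lower and 29.2% called higher from D7 to D18, and 29.9% called higher and 26.1% called lower from D18 to D32. Of 20 translation factors known as TOP mRNAs, 19 fell from D7 to D18 and 0 rose (median -1.20), and 18 rose and 0 fell from D18 to D32 (median 0.71). Eef1a1 (chosen after its values were seen), which brings aminoacyl-tRNA to the ribosome, stood at 7196, 7564 and 7038 CPM at D7, 2323, 2553 and 2341 CPM at D18 and 4700, 5828 and 5111 CPM at D32. Pabpc1, the poly(A) binding protein, fell by 2.20 (SE 0.0984) and Npm1, a nucleolar chaperone, by 2.51 (SE 0.137) from D7 to D18. Of 11 host genes of snoRNAs, which guide rRNA modification, 10 fell and 0 rose at D18 (median -1.32), and 9 rose and 0 fell at D32 (median 1.22). Zfas1 fell by 2.76 and rose again by 2.09 at D32, while Snhg16 fell by 2.12.

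Of 34 ribosome biogenesis factors, 33 fell and 0 rose from D7 to D18 (median -1.20). At D32, 22 rose and 1 fell against D18 (median 0.53). Against MEF, 34 of 34 were lower at D32 (median -1.52), beside 24.6% of all genes. Gnl3, a nucleolar GTPase, stood at 22.2 CPM at D18 and 84.4 CPM at D7, and Fbl, the rRNA methyltransferase, fell by 1.89 (SE 0.159). Fbl was at 174.7, 174.6 and 167.5 CPM in MEF, 37.1, 33.0 and 33.6 CPM at D18 and 37.7, 58.0 and 39.6 CPM at D32. Of 15 genes of RNA polymerase I and its factors, 12 fell and 0 rose at D18 (median -0.62), led by Taf1d (-1.64) and Polr1b (-1.31). At D32, 4 of these 15 rose and 2 fell (median 0.26), a share of rises near that of all genes, and 7 rose and 1 fell without D32 replicate 2.

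Among 20 genes of mTORC1 and TOP control, 12 fell and 1 rose at D18 (median -0.45), and 7 rose and 4 fell at D32 (median 0.05), which is close to the median of all genes. Eif4ebp1, a repressor of cap-dependent translation, fell by 2.04 (SE 0.256), from 75.4, 61.5 and 82.7 CPM to 18.4, 22.5 and 12.6 CPM. Sesn1, a sestrin that restrains mTORC1, rose by 1.77 (SE 0.124) and fell by 1.44 at D32. Mtor itself, also chosen so, differed by -0.09 (SE 0.0944, adjusted p = 0.456) at D18. Without D32 replicate 2, the rises from D18 to D32 numbered 16 of 20 TOP factors, 8 of 11 snoRNA hosts, 18 of 34 biogenesis factors and 7 of 20 mTORC1 genes.

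Other lists differed from each other in size and direction. Of 78 mitochondrial ribosomal protein genes tested, 28 fell and 9 rose at D18 (median -0.10), and Mrps6 rose by 1.55 (SE 0.128) while Mrps2 fell by 1.02 (SE 0.101). Of 14 proteasome core subunits 4 fell and 1 rose (median -0.24), a share of falls near that of all genes. Of 33 short respiratory chain subunits 3 fell and 13 rose (median 0.16), among them Ndufa3 by 1.075 and Atp5e by 1.06. Of 20 other initiation and elongation factors 14 fell and 1 rose (median -0.54), with Eif4a1 at -1.29. Of 13 mitochondrially encoded genes, 10 fell and 0 rose at D18 (median -1.04), and 6 rose and 0 fell at D32 (median 1.11). Without D32 replicate 2, 12 of these 13 rose at D32. All 12 cell division genes fell at D18 (median -3.04) and rose at D32 (median 3.595), the directions of the ribosomal protein genes with larger changes. In P-RPE all 12 were below MEF (median -5.94), beside 31.4% of all genes called lower. Mki67, a marker of cycling cells, changed by -4.26 (SE 0.247) at D18. The part of cell division and of mitochondrially encoded RNA in the ribosomal protein changes was not tested. Among 13 common reference genes 6 fell and 3 rose at D18, with Gapdh at 0.79 and B2m at -2.31.

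**Figure D5:**
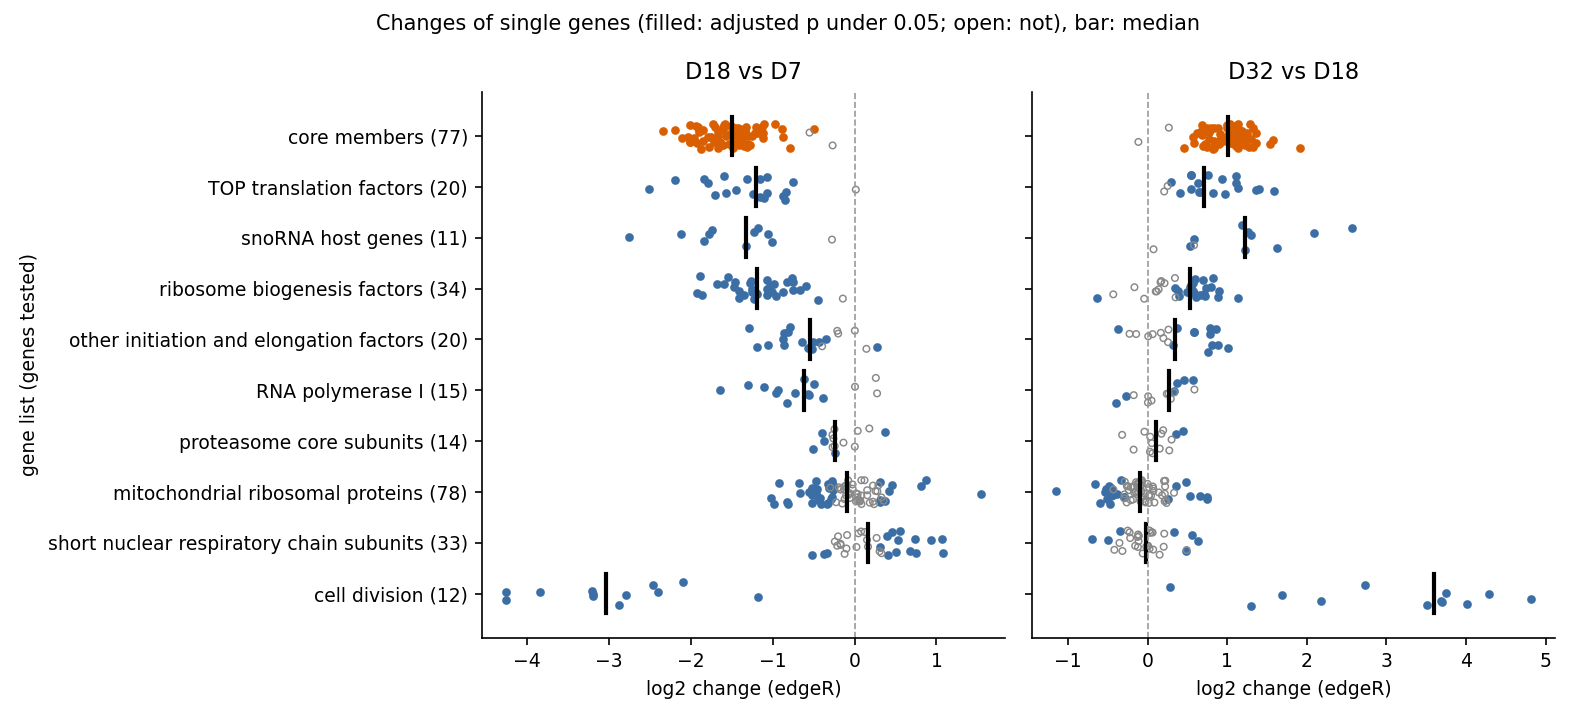
Log2 change of single genes (x axes) from D7 to D18 and from D18 to D32 for the 77 core members and 9 other gene lists (y axis). Filled dots passed the test at an adjusted p under 0.05 and bars are medians; the core members centre on -1.49 and 1.01, the mitochondrial ribosomal proteins on -0.10 and -0.10, and the cell division genes on -3.04 and 3.595.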

How the data were processed

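RNA of 14 mouse libraries was sequenced from both ends for 150 bases after a NEBNext Ultra kit, per the labels' protocols. Per the labels, the authors deposited counts, whole numbers per gene symbol and library. The builds mm10 and GRCm38 and the tools STAR 2.7.11a, featureCounts, edgeR 4.0.16 and limma 3.58.1 stand in the submitters' processing notes. The strand setting, the handling of reads with several matches and the annotation are not given in the sources used here. Low counts were more often even than odd (73.5% of values from 1 to 4), so both ends of a pair may count, and counts are not independent molecules. A table of human libraries was not used here.

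Members and lists were chosen with earlier results of these data known. Genes were kept with filterByExpr, and edgeR 4.0.16 in R 4.3.3 fitted 5 group means with TMM scaling and robust quasi-likelihood dispersions to all libraries. Each comparison was a contrast of 2 means. The SE is the log2 change over the square root of F. The procedure was tested on simulated data. Alternatives were other scalings, filters and tools (DESeq2 1.42.0, limma-voom 3.58.1), the 2 groups alone, a replicate block and leaving out each library. Genes named are, per comparison, the 3 highest and 3 lowest called members whose higher group mean reached 10 CPM. Named too are the paralog pairs, 10 members of known roles, and up to 2 called genes each way per other list. The text gives a selection of these. Other members named (Rpl24, Rpl37a, Rpl38, Rps10, Rps14, Rps21, Rps29 and the copies listed as pseudogenes) were chosen after their values were seen. Lengths, exons and overlaps come from GENCODE vM21 on GRCm38, which matched all 90 members, and sequences from RefSeq on GRCm38.p6.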

Additional observations from a re-analysis of the deposited data

How the results depend on the processing

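The deviations of 26 same-numbered pairs of libraries from their group means correlated at -0.10 to 0.10, with 0 over 0.1. Deviations from means of 2 or 3 libraries are constrained, so whether same-numbered libraries shared a culture or day cannot be told from them. With the number as a replicate block, the calls were 2 higher and 35 lower for D7 vs MEF, 1 and 83 for D18 vs D7, 81 and 1 for D32 vs D18, 1 and 75 for D32 vs MEF, 70 and 2 for D32 vs P-RPE and 1 and 82 for P-RPE vs MEF. With library totals in place of TMM, D7 vs MEF had 9 higher and 6 lower and D32 vs MEF 2 higher. This scaling moved the median of all genes by 0.32 for D7 vs MEF, -0.19 for D18 vs D7, 0.20 for D32 vs MEF and 0.23 for D32 vs P-RPE. With MEF and D7 fitted alone, 56 were lower. A mean of at least 5 CPM tested 79 members and left 1 higher for D7 vs MEF, 0 higher for D18 vs D7, 0 lower for D32 vs D18, 1 lower for D32 vs P-RPE and 0 higher for P-RPE vs MEF, since Rpl3l and Rpl24 fell under it. Leaving out each library in turn gave 0 to 2 higher and 21 to 35 lower for D7 vs MEF and 0 to 1 lower for D32 vs D18. For D32 vs P-RPE, leaving out each D32 library gave 61 to 73 higher and 1 to 3 lower. With D32 and P-RPE fitted alone, 60 were higher and 2 lower. Leaving out a P-RPE library left 1 in that group, with a median of 0.60 without replicate 1 and 0.73 without replicate 2. The summed share was 4.66% in MEF without mitochondrially encoded genes in the total. Without the 20 most abundant other genes it was 4.91% in MEF, 4.85% at D7, 1.498% at D18 and 1.77% in P-RPE. Over 170 changes of single named members that were called with all libraries, 2428 of 2477 alternative values kept direction and call. The call was lost in 49 and the direction reversed in 0. Changes that were not called did not enter these counts. Among them, that of Rpl39 for D32 vs MEF turned to -0.06 without D32 replicate 2. Members with few counts (Rpl3l, Rpl24, Rpl39l, Rpl36al) are limited by depth.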
